A study of Homo sapiens with 26 samples.

Results

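The factor eIF2 brings initiator tRNA to the ribosome, and its phosphorylation is one of the points at which stress slows translation. Described here are 10 genes of that control, a set defined by gene name: the 4 kinases that phosphorylate the alpha subunit of eIF2 (Eif2ak1 to Eif2ak4), the regulatory subunits of its phosphatase (Ppp1r15a and Ppp1r15b), 2 subunits of eIF2 (Eif2s1 and Eif2s2) and 2 subunits of its exchange factor eIF2B (Eif2b4 and Eif2b5). All 10 had a row in the input files, among 55353 gene rows, and all 10 in the gradient files, among 56638. The cells were SK-MEL-28, a human melanoma line, either untreated (control) or kept in salubrinal for 72 h. Salubrinal inhibits the dephosphorylation of eIF2 alpha and is used to switch on the integrated stress response (ISR). Of 26 samples, 2 were input RNA, 1 per treatment, and 24 were sucrose gradient fractions (40S, 60S, 80S and polysome, 3 replicates per treatment). Per the labels, cells of all 26 samples had cycloheximide (100 µg/mL, 12 min) before lysis.

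When eIF2 alpha is phosphorylated it binds eIF2B tightly and blocks it, so that less active eIF2 is left and most initiation slows. Each kinase answers to its own signal: EIF2AK1 (HRI) to heme shortage and mitochondrial stress, EIF2AK2 (PKR) to double-stranded RNA, EIF2AK3 (PERK) to unfolded proteins in the endoplasmic reticulum (ER) and EIF2AK4 (GCN2) to uncharged tRNA. PPP1R15A (GADD34), which the ISR induces, and PPP1R15B (CReP), which is made constitutively, bring protein phosphatase 1 to eIF2 alpha and end the response.

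The input files held 10245548 counts on gene rows with salubrinal and 12068784 without. The submitters' processing notes name the human build hg19, whereas the rows of the input files have mouse-style names. They include Eif2s3x and Eif2s3y, the X and Y copies of a mouse gene. No source used here resolves this conflict, so a low count need not mean a low level. Of 7 pigment-cell markers, 5 (Pmel, Tyr, Dct, Mitf and Sox10) had from 432 to 13535 counts with salubrinal and from 963 to 16793 without, while Mlana had 0 in both and Tyrp1 0 and 5. The markers of immune, endothelial, epithelial and fibroblast cells, 12 genes, had at most 60 counts in an input file, and 4 of them had 0 in both. The gradient files held 1119 to 23722 counts each outside ribosomal RNA. Outside those rows the 4 fraction files of a replicate agreed within sampling noise, with a chi-square per degree of freedom of 0.963 to 1.04 in the 6 sets (p from 0.0778 to 0.808), against 1.76 to 11.5 between the 3 replicates of a fraction. By this statistic the control 40S files titled replicates 1 and 2 belonged with the other files of replicates 2 and 1. The 24 gradient files were therefore also read as 6 libraries, 3 per treatment.

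In the input, 7 of the 8 members with at least 50 counts over both libraries were above 0 on the log2 scale with salubrinal, and 0 of the 8 were 2-fold higher or lower. The 7 include Eif2s1 at 0.02 and Eif2b4 at 0.00, whose intervals include 0, and relative to the median of all rows 5 of the 8 were above 0. Over all 10614 rows with that depth, 52% were above 0, 2.75% reached 2-fold higher and 3.8% reached 2-fold lower. The members' median log2 ratio was 0.32, beside 0.02 for all rows. With 1 library per treatment there is no replicate check and no test. The intervals below are exact 95% ones and cover counting error only. In bulk RNA, fewer cells and less RNA per cell cannot be told apart.

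Among the kinases, the PERK gene had the highest ratio. Eif2ak3 had 288 counts with salubrinal and 105 without, or 20.3 and 12.1 CPM (library-scaled counts on edgeR's trimmed-mean scaling), a log2 ratio of 0.74 (0.42 to 1.09). It stood above 93.3% of all measured rows. Eif2ak4, the amino acid sensor, had 1047 and 505 counts (73.7 and 58.0 CPM) and a log2 ratio of 0.35 (0.19 to 0.50). Eif2ak1, the mitochondrial stress kinase, had 377 and 189 counts (26.6 and 21.7 CPM) and a log2 ratio of 0.29 (0.04 to 0.55). All 3 intervals lay above 0. Eif2ak2, the kinase for double-stranded RNA, had only 13 and 17 counts, a log2 ratio of -1.09 whose interval of -2.25 to 0.04 spans 0. That ratio is without the prior count used for the other rows, and with it the ratio was -0.96. Its change was not detectable at this depth.

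Of the phosphatase subunits, only the constitutive one could be measured. Ppp1r15b had 277 counts with salubrinal and 127 without (19.5 and 14.6 CPM), a log2 ratio of 0.42 (0.11 to 0.73). Ppp1r15a, the stress-induced subunit, had 3 counts with salubrinal and 0 without. Both are at or below 3 counts, the limit that a count of 0 allows, so no ratio is given and its response to salubrinal cannot be read from these files. The catalytic partners of these subunits differed among themselves. Ppp1cb stood at 0.41 (0.33 to 0.48), close to Ppp1r15b, from which it differed by 0.01 (Ppp1r15b minus Ppp1cb, -0.30 to 0.34). Ppp1ca stood at -0.17 (-0.32 to -0.03), and Ppp1r15b exceeded it by 0.59 (0.25 to 0.94).

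The subunits of eIF2 itself did not keep their proportions between the 2 input libraries. Eif2s2, the beta subunit, had 2802 counts with salubrinal and 1022 without (197 and 117 CPM), a log2 ratio of 0.75 (0.65 to 0.85). Eif2s1, the alpha subunit that carries the phosphorylation site, had 811 and 492 counts (57.1 and 56.5 CPM), a log2 ratio of 0.02 (-0.15 to 0.18). The difference between the 2 ratios was 0.73 (0.54 to 0.93). It is a comparison within libraries and does not depend on how they are scaled. The gamma subunit has X and Y copies in the mouse and its reads fell on 2 rows, Eif2s3x (747 and 371 counts) and Eif2s3y (914 and 503). Summed, they gave 0.22 (0.10 to 0.34), which lay below Eif2s2 by 0.53 (Eif2s2 minus the sum, 0.37 to 0.69).

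The exchange factor eIF2B also split. Eif2b4 (delta subunit) had 535 and 328 counts, which is 37.7 CPM in both libraries, a log2 ratio of 0.00 (-0.20 to 0.20). Eif2b5 (epsilon, the catalytic subunit) had 518 and 335 counts (36.5 and 38.5 CPM) and stood at -0.08 (-0.28 to 0.13). Eif2b1 (alpha) had a similar ratio of -0.07 (-0.31 to 0.17). Eif2b2 (beta) and Eif2b3 (gamma) were higher, at 0.57 (0.30 to 0.86) and 0.46 (0.24 to 0.69). Against Eif2b5, Eif2b2 was higher by 0.65 (0.31 to 1.00) and Eif2b3 by 0.54 (0.23 to 0.84).

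**Figure D1:**
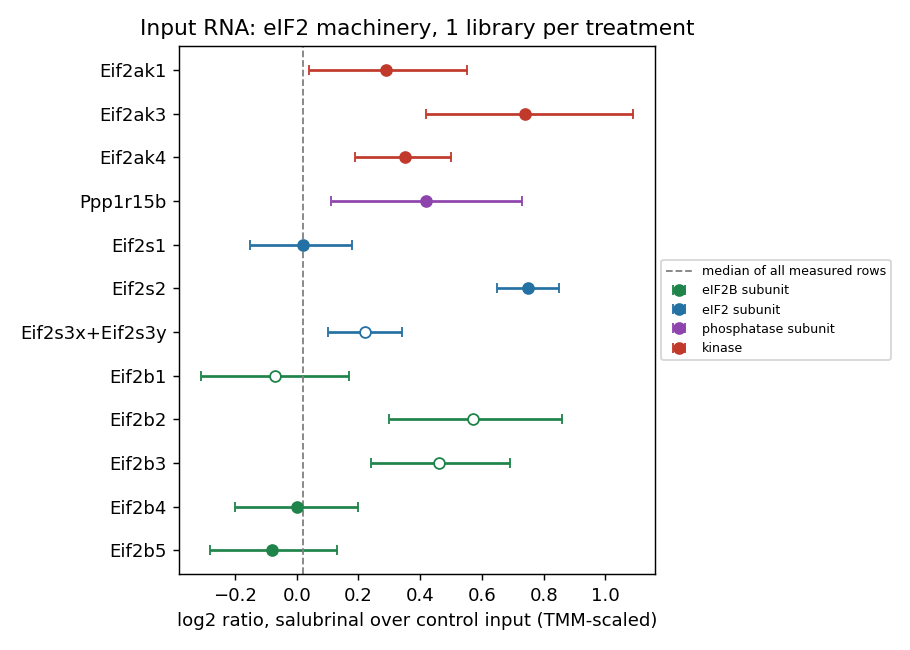
Log2 ratio of salubrinal over control input for each measured gene of the machinery (filled) and for the other subunits of eIF2 and eIF2B (open), with exact 95% intervals for counting error and the median of all measured rows as a dashed line. Eif2s2 (0.75) and Eif2ak3 (0.74) lie highest. Eif2s1, Eif2b4 and Eif2b5 (filled) and Eif2b1 (open) have intervals that include 0.

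Ordered by ratio, the measured members were Eif2s2, Eif2ak3, Ppp1r15b, Eif2ak4, Eif2ak1, Eif2s1, Eif2b4 and Eif2b5. No neighbours in this order differed beyond counting error, since each step's interval includes 0. Of all 28 pairs, 17 had an interval that excludes 0. Eif2ak3 exceeded Eif2ak1 by 0.46 (0.04 to 0.89) and Eif2ak4 by 0.40 (0.04 to 0.78), while Eif2ak4 and Eif2ak1 differed by 0.06 (-0.25 to 0.36). Eif2ak3 and Eif2s2 differed by 0.00 (-0.34 to 0.35). Eif2s1, Eif2b4 and Eif2b5, which are the substrate and 2 subunits of its exchange factor, differed from each other by 0.02 to 0.09, with every interval including 0. The intervals are per pair and carry no correction for the number of pairs.

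**Figure D2:**
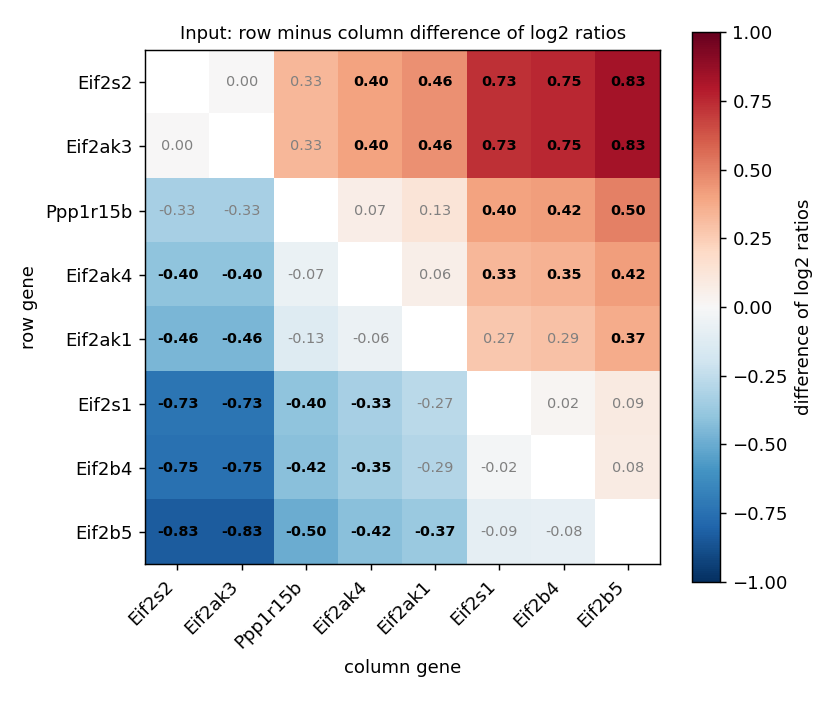
Difference of log2 ratios (row gene minus column gene) for the 8 measured members, ordered by ratio. Bold black values have a 95% counting interval that excludes 0 (17 of 28 pairs), and the largest, 0.83, set Eif2s2 and Eif2ak3 against Eif2b5.

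The sizes depended on scaling in a way shared by all rows. One row, CT010467.1, classed here with the ribosomal RNA-like rows, took 56.7% of gene-row counts in the control and 12.8% in the salubrinal input. Scaling by library totals alone raised the median of all rows by 0.93, and the members' median to 1.25. Relative to the median of all rows, the members' median was 0.29 under trimmed-mean scaling and 0.30 under library totals.

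The promoters of human EIF2AK3, PPP1R15B and EIF2S1 are shown as 1 example each of a kinase, a phosphatase subunit and the substrate. They were picked after the motif matches were seen, so they show no contrast between members. They are RefSeq sequences (GRCh38.p14) of 300 bases, mostly upstream of the start. The table holds 8 of the 10 members, with 9 promoters. Capitals mark the ATF response element TGATGNAA, bound by ATF4 with C/EBP partners, and the CCAAT box, both searched on both strands. The EIF2AK3 promoter lies at chr2:88627415-88627714, that of PPP1R15B at chr1:204411768-204412067 (both minus strand) and that of EIF2S1 at chr14:67360078-67360377 (plus strand).
EIF2AK3: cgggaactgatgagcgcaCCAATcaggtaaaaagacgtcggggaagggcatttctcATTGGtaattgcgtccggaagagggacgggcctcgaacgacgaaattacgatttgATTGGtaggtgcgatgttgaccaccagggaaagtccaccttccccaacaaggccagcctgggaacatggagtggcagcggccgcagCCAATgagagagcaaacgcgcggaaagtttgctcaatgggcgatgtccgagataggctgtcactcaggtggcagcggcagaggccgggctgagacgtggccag
PPP1R15B: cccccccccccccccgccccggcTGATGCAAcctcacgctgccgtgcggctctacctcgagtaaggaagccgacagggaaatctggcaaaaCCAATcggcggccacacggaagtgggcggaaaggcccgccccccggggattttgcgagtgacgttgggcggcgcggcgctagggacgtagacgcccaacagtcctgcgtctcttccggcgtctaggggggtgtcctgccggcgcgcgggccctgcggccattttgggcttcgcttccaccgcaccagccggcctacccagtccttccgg
EIF2S1: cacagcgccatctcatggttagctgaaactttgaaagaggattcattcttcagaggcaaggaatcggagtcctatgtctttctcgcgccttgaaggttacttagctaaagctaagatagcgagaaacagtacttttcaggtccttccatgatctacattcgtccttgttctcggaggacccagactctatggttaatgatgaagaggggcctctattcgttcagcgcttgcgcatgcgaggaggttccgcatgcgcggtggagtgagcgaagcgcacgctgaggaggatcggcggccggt
PPP1R15B holds 1 match to TGATGNAA, with the letters TGATGCAA from position -227, and it is the only one of the 9 member promoters with a match. This motif is in 3.62% of the 35116 promoters of RefSeq searched. EIF2AK3 holds 4 CCAAT boxes, at positions -232, -194, -139 and -53, and EIF2S1 none. EIF2AK4, whose input interval lay above 0, holds neither TGATGNAA nor CCAAT, and 1 of the 2 promoters of EIF2B4, whose input interval included 0, holds 1 CCAAT box. The CCAAT box is in 34.6% of all promoters and in 4 of these 9. CCACG, the core of the ER stress element (both strands, not in capitals), in 38.1% of all promoters, is in 6 of the 9, with 1 match in EIF2AK3 and 0 in PPP1R15B and EIF2S1. These are matches of letters and were not tested as sites.

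Around the members, the other genes of eIF2 and eIF2B, its assembly and start-codon partners had a median log2 ratio of 0.25 over 12 measured rows, with 0 of them 2-fold higher or lower. Eif1b, a start-codon selection factor, was highest at 0.91 (0.55 to 1.31), and Eif5, which makes eIF2 hydrolyse its GTP, stood at 0.60 (0.51 to 0.69). Eif1ax was lowest at -0.18 (-0.44 to 0.08).

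The regulators of the kinases were split evenly, 8 above and 8 below 0 of 16 measured, with a median of 0.01. Hspa5 (BiP), the ER chaperone that holds PERK inactive, was highest at 0.57 (0.52 to 0.63). Prkra (PACT), an activator of PKR, stood at 0.40 (0.21 to 0.59). Dele1, which carries mitochondrial stress to HRI, was lowest with Abcf1, both at -0.65, from 81 and 79 counts for Dele1 (-1.13 to -0.20). Gcn1, the coactivator of GCN2, had 1675 and 1412 counts and stood at -0.46 (-0.56 to -0.36), while its kinase Eif2ak4 stood at 0.35.

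Among the phosphatase partners, with a median of 0.00 over 7 rows, the actin genes were lowest. Monomeric actin is part of the PPP1R15 phosphatase complex. Actg1 had 431 counts with salubrinal and 845 without, a log2 ratio of -1.67 (-1.85 to -1.51), and was the 1 row of this list at least 2-fold lower. Actb stood at -0.91 (-0.95 to -0.87). Reads of near-identical actin copies may have been placed on either row or on neither. The highest of the list was Ppp1cb.

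The factors that can bring initiator tRNA to the ribosome in place of eIF2, or that join subunits, had a median of 0.28 over 5 rows. Eif2a was highest at 0.55 (0.41 to 0.70), Eif2d stood at 0.43 (0.17 to 0.70) and Eif5b was lowest at -0.28 (-0.43 to -0.14). The eIF3 subunits, taken for comparison, had a median of 0.19 over 14 rows, from Eif3g at -0.37 (-0.56 to -0.18) to Eif3l at 0.52 (0.45 to 0.58). The members' span, from -0.08 to 0.75, overlapped that of eIF3. Neither list had a row 2-fold higher or lower.

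The ISR output genes lay far above the machinery that controls them. Of 7 measured, 6 were at least 2-fold higher, with a median of 2.19, and 1, Atf5, was at least 2-fold lower at -1.66 (-2.57 to -1.01). The lowest of the 6 was Atf4 at 1.82 (1.73 to 1.91), above the highest member (0.75). Of the others, Asns stood at 3.20, Chac1 at 2.49, Trib3 at 2.26, Sesn2 at 2.19 and Ddit3, the gene of CHOP, at 2.14. Atf3 had 40 and 3 counts, under the minimum.

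**Figure D3:**
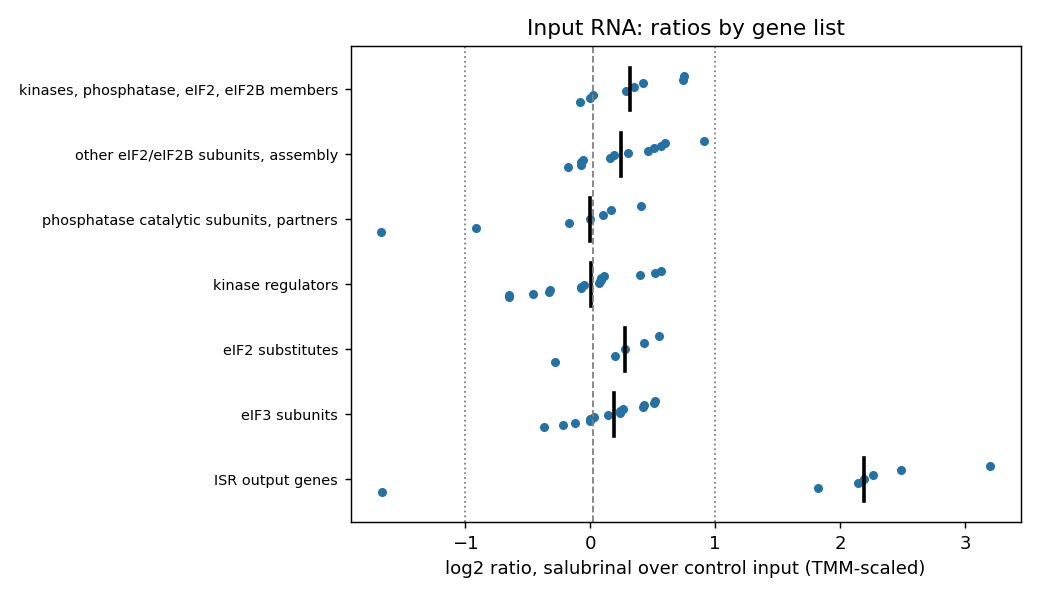
Log2 ratio of salubrinal over control input for each measured gene (points) by list, with list medians (black bars), the median of all measured rows (dashed) and the 2-fold limits (dotted). The members and the lists around them lie within the 2-fold limits apart from Actg1 (-1.67), whereas 6 of 7 ISR output genes lie above them.

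In the gradient fractions the machinery was almost unread, with 1 exception. The 10 member rows held 199 counts over the 24 files, and EIF2AK1 held 181 of them (91%). The other 9 rows together held 18: PPP1R15A and EIF2S2 had 4 each, EIF2AK4, EIF2S1, EIF2B4 and EIF2B5 2 each, EIF2AK2 and PPP1R15B 1 each and EIF2AK3 0. In no file did one of these 9 rows have more than 1 count. Over the 10220 rows outside ribosomal RNA with any count, the median was 3 counts over the 24 files, and EIF2AK1 ranked 234.

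Within the fractions, EIF2AK1 had 16, 5 and 24 counts in the control polysome files of replicates 1 to 3 and 1, 0 and 6 in the salubrinal ones. In 80S it had 14, 4 and 14 against 1, 0 and 6 counts, and in 60S 10, 3 and 25 against 1, 0 and 13. In 40S, as titled, it had 1, 21 and 11 against 0, 0 and 5. Salubrinal replicate 2 was at 0 in every fraction, and the ranges of the 2 treatments overlapped in each one. With the files read as libraries, EIF2AK1 had 61, 13 and 74 counts in the controls and 3, 0 and 30 with salubrinal.

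**Figure D4:**
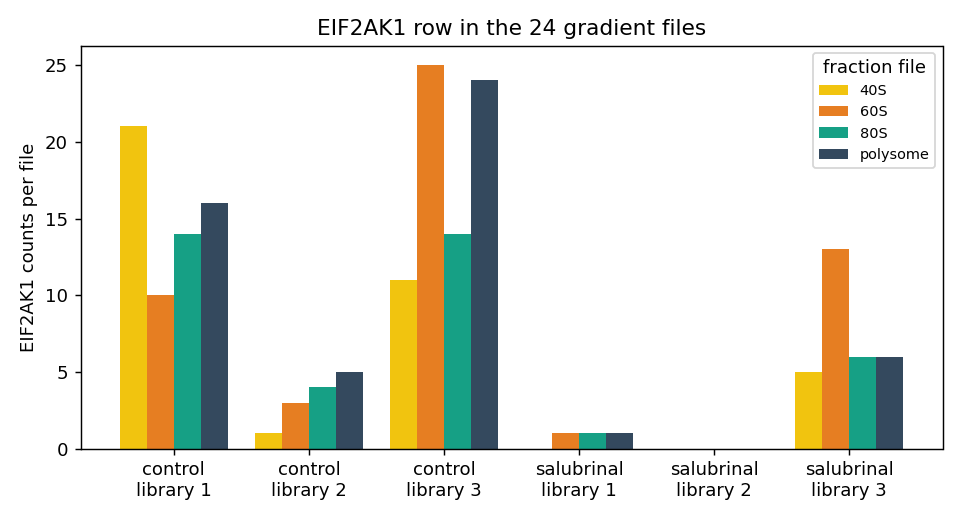
Counts on the EIF2AK1 row in each of the 24 gradient files, grouped by library as matched outside ribosomal RNA and coloured by fraction. Control libraries 1 and 3 and salubrinal library 3 hold most of the 181 counts, and salubrinal library 2 holds 0.

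The libraries differed in depth in the same order. Outside ribosomal RNA the controls held 86534, 22866 and 93782 counts and the salubrinal libraries 10359, 4776 and 73631. In CPM of these counts, without trimmed-mean scaling, EIF2AK1 stood at 705, 569 and 789 in the controls (688 ± 111, mean ± SD, n = 3) and at 290, 0 and 407 with salubrinal (232 ± 210, n = 3). The groups did not overlap (two-sided exact permutation p = 0.1, the smallest that 3 against 3 allows). However, the 0 of salubrinal library 2 allows up to 628 CPM, which is above the lowest control.

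In the comparison of summed libraries EIF2AK1 was the only member row with enough counts to be tested. Its log2 fold change was -0.78 ± 0.39 (SE; edgeR quasi-likelihood test, Benjamini-Hochberg adjusted p = 0.265). In trimmed-mean CPM the controls stood at 8.86 ± 1.01 and the salubrinal libraries at 3.53 ± 3.09 (SD, n = 3). It did not pass the threshold of 0.05, so 0 of 1 tested member rows was called, with 1 at an unadjusted p under 0.05. Such an unadjusted p was also common over all rows, at 162 of the 913 tested. Of all 913 rows tested 5.7% were called, and 2.08% were called lower. On the trimmed-mean scale every salubrinal library lay below every control library for EIF2AK1, as for 18.6% of the 913 rows. That order rests on 3 and 0 counts in salubrinal libraries 1 and 2. It also rests on scaling factors that ran from 0.0908 (salubrinal library 2) to 5.19 (control library 3). In DESeq2, EIF2AK1 was the only member row with an adjusted p (0.647), and it was not called; the other 8 rows with a p had none. Without salubrinal library 3 the log2 fold change was -1.47 (edgeR adjusted p = 0.442), beside a median of -0.64 over all rows. With library sizes alone it was -2.05 (edgeR adjusted p = 0.862), beside a median of -1.30 over all rows.

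In the single fractions no member row had enough counts to pass the low-count filter, so 0 were tested and 0 called with edgeR. Of all rows tested 3.73% were called in polysome, 12.7% in 80S, 9.83% in 60S and 8% in 40S. Outside ribosomal RNA the 4 fraction files of a library, as matched by chi-square, agreed within sampling noise (chi-square per degree of freedom 0.963 to 1.04). That comparison used rows with at least 10 counts, from 29 rows in salubrinal library 2 to 1354 in control library 3. The 4 fraction comparisons thus reread the same 6 libraries and are not separate results. With so few counts, and with no difference detected between the fractions in the rows compared, a change in ribosome loading of these mRNAs could not be read.

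The position of EIF2AK1 bears on what its row holds. In the RefSeq gene table it overlaps the tRNA synthetase complex gene AIMP2, ANKRD61 and 2 small RNA pseudogenes. In the gradient files the AIMP2 row had 12 counts and the ANKRD61 row 5. In the input Aimp2 had 312 and 254 counts, and Eif2ak1 exceeded it in log2 ratio by 0.70 (0.34 to 1.06). Reads of overlapping genes may be placed on either row, no source used here gives the strand setting of the counting, and the part of AIMP2 in the EIF2AK1 counts was not tested. Of the other members, EIF2AK2, EIF2AK3, EIF2AK4, EIF2S1 and EIF2B4 overlap another gene in that table, and PPP1R15A, PPP1R15B, EIF2S2 and EIF2B5 do not. EIF2S1 lies within GPHN on the same strand. The GPHN row had 6 gradient counts, and 269 input counts with salubrinal and 198 without. EIF2AK2 overlaps GPATCH11 (1 gradient count) and the pseudogene ARL14EPP1, and EIF2AK4 a snoRNA gene and the pseudogene H3P38. EIF2AK3 overlaps the noncoding RNA genes EIF2AK3-AS1 and EIF2AK3-DT, and EIF2B4 overlaps GTF3C2-AS2. The part of these genes in the member counts was not tested.

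The genes around the members were as sparse in the gradient. EIF2B1 had 56 counts, EIF5B 35, EIF2A 23 and PRKRA 14, and the other rows of their lists had at most 10. In the RefSeq gene table EIF2B1 overlaps DDX55 (1 gradient count) and EIF5B overlaps REV1 (22 gradient counts). EIF2A and PRKRA each overlap a long noncoding RNA gene. The part of these overlapping genes in the counts was not tested. Among eIF3 subunits EIF3I had 72 counts, EIF3L 26 and EIF3H 18, with 10 of 13 rows under 10 counts. EIF2B1 stood at 19, 4 and 17 counts in the control libraries and 1, 0 and 15 with salubrinal. PRKRA stood at 4, 0 and 1 against 0, 0 and 9, with all of its salubrinal counts in library 3. No test is given for these rows.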

How the data were processed

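Read counts per gene row, deposited by the authors and not normalized, were used for 2 input and 24 gradient files. The submitters' processing notes name build hg19 and, without roles, DESeq, HTSeq 0.5.3p3, STAR, FastQC 0.11.5 and SAMtools 0.1.19.24. No source used here gives the strand setting. Per the labels' protocols libraries came from a stranded total RNA kit. The cell-line field of the labels counts upward from sample to sample, whereas every title names SK-MEL-28, and titles were followed. Rows that name no gene were left out; gene rows held 4.72 to 7.06% of all counts.

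CPM are counts per 1000000 of the scaled library size. Input ratios are log2 of TMM-scaled counts (edgeR 4.0.16 in R 4.3.3, prior count 2, minimum 50 counts over both libraries). Their intervals are conditional binomial ones without the prior, and differences between genes have conditional odds-ratio intervals (scipy 1.17.1), all at 95%. Gradient fractions were compared, 3 against 3, with edgeR (filterByExpr, TMM, robust glmQLFit, quasi-likelihood test, Benjamini-Hochberg threshold 0.05). Each edgeR standard error was taken back from the p, as the fold change (log2) over the matching normal deviate. Files were matched into libraries by chi-square over rows with at least 10 counts, and the 4 files of a library summed. The labels do not call the replicates separate cultures; p-values then measure only the spread between these samples, which may be technical. The edgeR test and the interval were tested on simulated data. Alternatives included DESeq2 1.42.0.

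All 10 members were named, with the highest and lowest measured input row of each list, and those at least 2-fold higher or lower. Genes that overlap a member, EIF2B1 or EIF5B were named as well, apart from the small RNA pseudogenes at EIF2AK1 and the snoRNA gene at EIF2AK4. The other list genes named, among them Eif5, Prkra, Gcn1, Eif2d, Actb, Ppp1ca, the gamma subunit rows, Eif2b1 to Eif2b3 and the gradient rows of the lists, were chosen after their values were seen. The members and lists were chosen with earlier results of these data known.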

Additional observations from a re-analysis of the deposited data

How the results depend on the processing

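Under RLE size factors, removal of ribosomal RNA-like and mitochondrial rows, a prior count of 0.5 and a minimum of 200 counts, the members' input median stayed at 0.32, with 0 rows 2-fold higher. Library sizes alone gave a median of 1.25 and 5 members at least 2-fold higher (45.5% of all rows), moved Eif2b5 from -0.08 to 0.86, and moved the median of all rows by 0.93, while the differences between members do not depend on it. With no minimum, 1 member was 2-fold higher (5.92% of all rows), Ppp1r15a at 3 and 0 counts. In the gradient, 0 member rows were called under the alternatives run (each replicate left out: 0 to 0), library sizes alone, which was added after the data were seen, among them. In the single fractions many of these tested no member row, and at most 6 in any, so those counts of 0 say nothing about stability. EIF2AK1 in the summed libraries stayed between -2.05 and -0.70, with an adjusted p (edgeR or DESeq2) of 0.171 to 0.862 over 13 alternatives. Library sizes alone gave the -2.05, with the median of all rows at -1.30. Leaving out salubrinal library 3 gave -1.47, with the median of all rows at -0.64. With the replicate number as a block it was -0.89 (edgeR adjusted p = 0.354) and 0 members were called. The numbers were not taken as pairing the samples. Deviations correlated at -0.02, 0.17 and 0.31 in the 3 same-numbered pairs of libraries, and with their own number best in 2 of the 3 salubrinal libraries. In polysome, 80S and 60S the same-numbered correlations were 0.35, 0.37 and 0.35 for replicate 2 and 0.42, 0.55 and 0.52 for replicate 3. For replicate 1 they were 0.02, -0.04 and 0.00. In 40S, salubrinal replicate 2 correlated best with the control titled 1 (0.44). Whether the numbers pair the samples is thus not settled. Counts called over all rows moved with the setting: over all alternatives 9 in polysome became 0 to 39, 27 in 80S 0 to 46, 23 in 60S 0 to 41, 18 in 40S 0 to 47 and 52 in the summed libraries 0 to 117, the highest without salubrinal replicate 2 except in 60S (without ribosomal RNA rows). With single libraries left out the summed count was 8 (without control library 1 or 3) to 117. Library sizes alone gave 0 in all 5 comparisons, with 0 rows at an unadjusted p under 0.05, and DESeq2 gave 0 in the 4 fractions, with 57, 59, 45 and 53 such rows in polysome, 80S, 60S and 40S; in the summed libraries it called 18. Depth limits the gradient results: 9 of the 10 members had at most 4 counts over 24 files.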
